A study of Gallus gallus with 28 samples.

Results

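The collagen genes of the chicken were followed here in the basilar papilla (the auditory sensory organ of birds) after exposure to streptomycin. They were taken from a table of 17684 features as every row whose symbol consists of COL, a type number, the letter A and a chain number, which gave 38 genes. By the type in the symbol they comprised 8 fibrillar collagens, 3 cartilage collagens (COL2A1, COL9A1 and COL9A3), 6 basement membrane collagens (COL4A1 to COL4A6) and 21 collagens of other types. COL2A1 also encodes a fibrillar chain and is counted with the cartilage collagens. COL9A2, COL5A3, COL11A2, COL16A1 and COL26A1 had no row under these symbols and so were not analysed here.

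Collagens are secreted proteins whose chains wind into helical trimers, and the combination of chains sets the type. Fibrillar collagens build the fibres of connective tissue, type IV collagen forms the network of basement membranes, and type VI collagen forms beaded filaments in the matrix around cells. Types II and IX are best known from cartilage. In the inner ear of mammals types II, IX and XI also contribute to the tectorial membrane that covers the hair cells. Whether they do so in the papilla was not examined here. Beneath the sensory epithelium the papilla rests on a basement membrane and connective tissue. The values come from whole tissue, so fewer cells of a type and less RNA per cell cannot be told apart.

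Per the labels, treated papillae were dissected, received streptomycin (an aminoglycoside antibiotic toxic to hair cells) for 24 h and recovered for a stated time, while controls had no treatment. RNA sequencing values of 28 samples were used, 15 treated and 13 control, at labelled times of 0, 24, 48, 72, 96, 120, 144 and 168 h. Of the 16 groups, 12 held 2 samples and 4 held 1 (treated at 96 h and controls at 72, 96 and 120 h). The labels do not say whether 0 h is the end of the 24 h exposure, so the times are given as labelled. The labels give no age, strain or sex, nor whether a sample is 1 papilla or a pool, so p-values measure the spread between these samples only.

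Levels are in RPKM, which scales reads to gene length and library size, so that genes can be compared per length. Differences are fitted log2 differences ± standard error on the log2(RPKM + 1) scale, which understates folds of low genes. A gene is said to rise, fall or be called when its limma p, adjusted by Benjamini-Hochberg over all 12195 features tested, was under 0.05. The early window joins 0, 24 and 48 h (6 treated, 6 control), and the late window joins 120, 144 and 168 h (6 treated, 5 control). The early and late differences of treated from control are computed from different samples, whereas the change over time within an arm shares its samples with both. All these comparisons came from the same fit, which shares its estimate of each gene's spread between samples. The early and late tests are therefore not independent.

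Across the series the libraries held 16477075 to 38168915 alignments. Summed levels of 8 hair cell marker genes were 32.6 to 66.4 RPKM in treated samples and 70.4 to 342 RPKM in control samples, which did not overlap, and none of these markers was at 0 in all samples of an arm. Summed levels of 7 supporting cell markers were 574 to 898 RPKM in treated and 85.1 to 304 RPKM in control samples early, without overlap, and 136 to 227 RPKM in treated and 123 to 160.1 RPKM in control samples late. GJB6 alone gave most of the early treated supporting cell sum, at 317 to 654 RPKM, and had 27.8 to 165 RPKM in early controls. In the late window the hair cell sum was 32.6 to 41.8 RPKM in treated samples and 70.4 to 139 RPKM in control samples. Early it was 49.0 to 66.4 RPKM in treated samples and 194 to 324 RPKM in control samples. MYO6 alone gave most of the sum in early treated samples (44.5 to 64.2 RPKM), so the treated sums mainly follow this gene. Between the windows 5 of the 8 hair cell markers rose in treated papillae and 1 fell, where 24.8% of all features rose and 29.9% fell.

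The abundance of individual collagens spanned a wide range. COL18A1, whose product sits in basement membranes and releases endostatin, had the highest mean (74.5 RPKM over the 28 samples), followed by COL1A1 (55.7 RPKM), COL14A1 (30.8 RPKM), COL1A2 (30.4 RPKM) and COL6A1 (28.3 RPKM). COL6A2 (26.6 RPKM), COL11A1 (22.9 RPKM), COL2A1 (22.1 RPKM), COL6A3 (22.0 RPKM) and COL5A1 (21.1 RPKM) came next and lay close together. The most abundant basement membrane chain was COL4A1 (15.6 RPKM), ahead of COL4A6 (14.3 RPKM) and COL4A2 (12.4 RPKM). Of the 38 genes, 32 reached 1 RPKM in at least 2 samples and were tested. The 6 others (COL10A1, COL19A1, COL20A1, COL22A1, COL28A1 and COL6A6) never exceeded 1.41 RPKM and all belonged to the other types. COL25A1 passed only through 3 control samples and reached no more than 0.751 RPKM in treated samples, so that its calls say nothing on their own. Without it, 16 rather than 17 collagens were lower over all times, 11 rather than 12 late and 2 rather than 3 at 144 h, and 12 rather than 13 rose with time in controls. COL10A1, a marker of hypertrophic cartilage, was among the 6 genes not tested, with a mean of 0.297 RPKM.

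**Figure D1:**
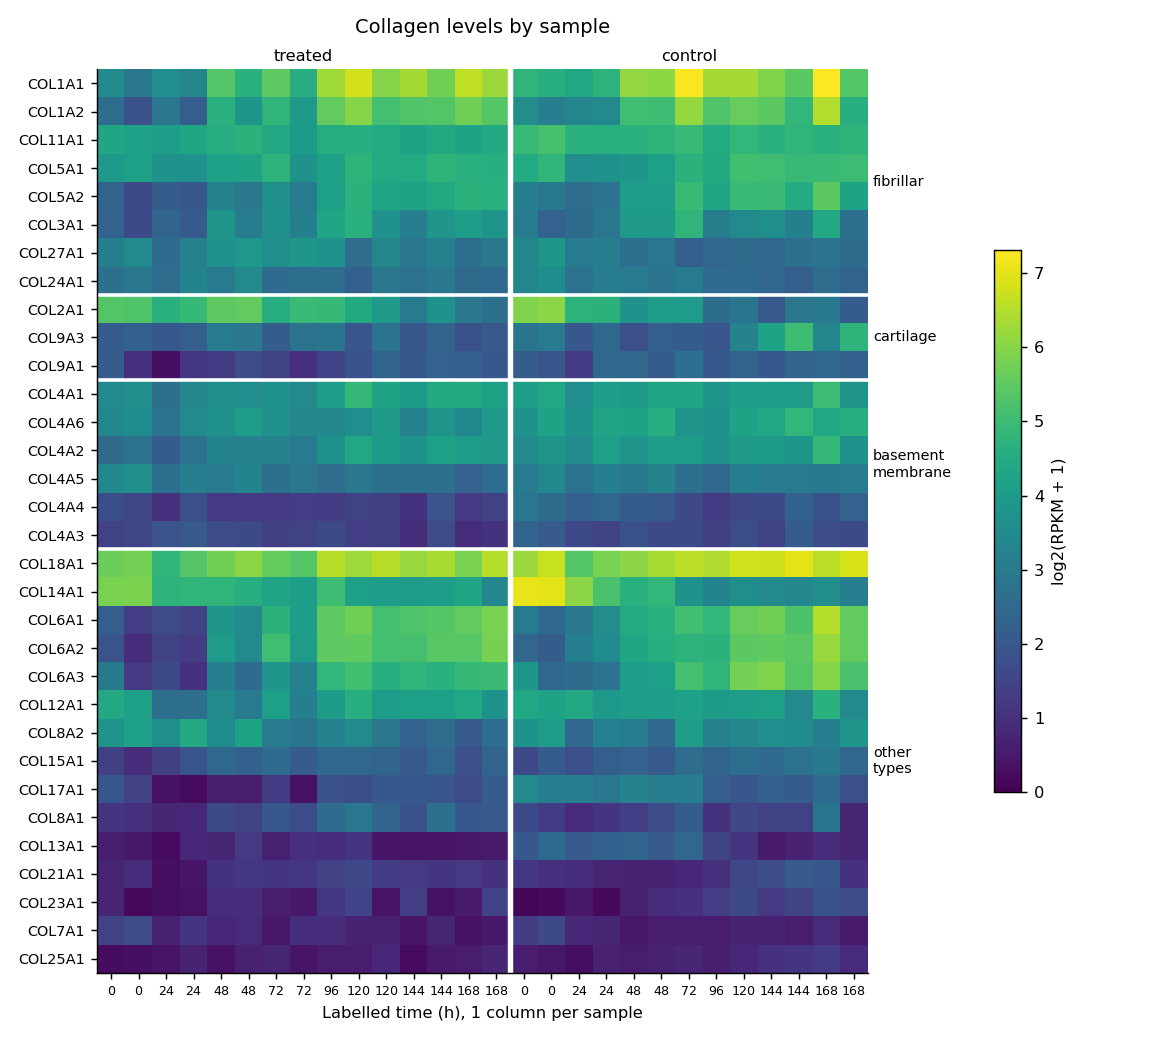
Heat map of log2(RPKM + 1) for the 32 tested collagens (rows, by class) in the 15 treated and 13 control samples (columns, by labelled time in h). COL18A1 was high throughout, with no sample under 27.1 RPKM, while COL17A1 was as low as 0.154 RPKM in treated samples.

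Collagen mRNA was lower in treated papillae early. At 0 to 48 h, 17 of the 32 tested collagens fell in treated papillae and 1 (COL8A2) rose, where 51.1% of all features tested were called, 23.5% of them lower and 27.6% higher as shares of the features tested. The median difference was -0.55 over the tested collagens and 0.03 over all features. Falls came from each class, with 4 of 8 fibrillar, 1 of 3 cartilage, 4 of 6 basement membrane and 8 of 15 tested genes of other types. Summed over all collagens, the level was 194 to 388 RPKM in treated samples and 329.9 to 569.5 RPKM in control samples of this window. Summed levels of 9 mesenchyme markers (of 10 listed, none at 0 in all samples) were 51.4 to 118 RPKM in treated and 86.8 to 206 RPKM in control samples. Of the 9, 4 were called lower and 0 higher. At 0 h alone 0 were called, where 25.5% of all features were called. THY1 gave much of the sum, at 33.8 to 52.1 RPKM in treated and 56.2 to 100.3 RPKM in control samples. The part of mesenchyme in the result was not tested.

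Late, fewer collagens were called (43.8% of those tested, 56.2% early), and the share called over all features fell more (19.4%, 51.1% early). At 120 to 168 h, 12 of the 32 fell and 2 (COL2A1 and COL14A1) rose in treated papillae, where 19.4% of all features were called, 15.1% lower and 4.31% higher. The median was -0.26 over the collagens and -0.07 over all features. When samples were rescaled by median of ratios, 7 were lower and 3 higher. The late calls were also less stable, since leaving out control 144 h sample 2 left 3 lower, leaving out treated 144 h sample 1 or treated 168 h sample 1 left 4, and leaving out treated 120 h sample 2 left 7. The rises numbered 0 without control 120 h sample 1, and 1 without control 144 h sample 2, treated 144 h sample 2, control 168 h sample 2 or treated 168 h sample 1. Without control 120 h sample 1, the single control of its time, 120 h dropped out of the comparison, which left 144 and 168 h. The mesenchyme sum was 182 to 277 RPKM in treated and 223 to 317 RPKM in control samples, with 1 of 9 markers called (lower). Leukocyte marker sums were 85.9 to 183 RPKM in treated and 207 to 286 RPKM in control samples, without overlap, and 5 of 6 leukocyte and 8 of 8 hair cell markers were called lower (2 of the hair cell markers passed the filter through controls alone). The part of any of these in the late differences was not tested.

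The treatment difference itself was tested between the windows. Relative to the early window, the late treated-minus-control difference was higher for 9 collagens and lower for 4, where 34.5% of all features were called, 12.6% higher and 21.9% lower. The median change was 0.42 over the collagens and -0.12 over all features. After median-of-ratios rescaling, 12 were higher and 2 lower, and the median over all features was -0.003, against -0.122 without rescaling. The number lower was 2 without any 1 of control 0 h sample 1, treated 24 h sample 2, control 48 h sample 1, treated 48 h sample 2, treated 120 h sample 2 or treated 168 h sample 1. Treating the replicate number as a block within each time gave 15 higher. The shares of all features called under the rescaling or this block are not given here for this comparison.

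Both arms changed with time. In treated papillae 17 collagens rose and 8 fell between the early and the late window, where 54.7% of all features were called, 24.8% higher and 29.9% lower. In controls 13 rose and 7 fell, where 49.0% of all features were called, 28.7% higher and 20.3% lower. Median changes were 0.49 in treated and 0.28 in control papillae over the collagens, against -0.04 and 0.07 over all features. All 9 mesenchyme markers rose in treated papillae and 7 of 9 rose in controls. Leukocyte markers, 6 of 6, rose in each arm, with sums of 85.9 to 183 RPKM late and 20.1 to 35.6 RPKM early in treated papillae, and of 207 to 286 RPKM late and 33.1 to 111 RPKM early in controls. The part of either in these changes was not tested.

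**Figure D2:**
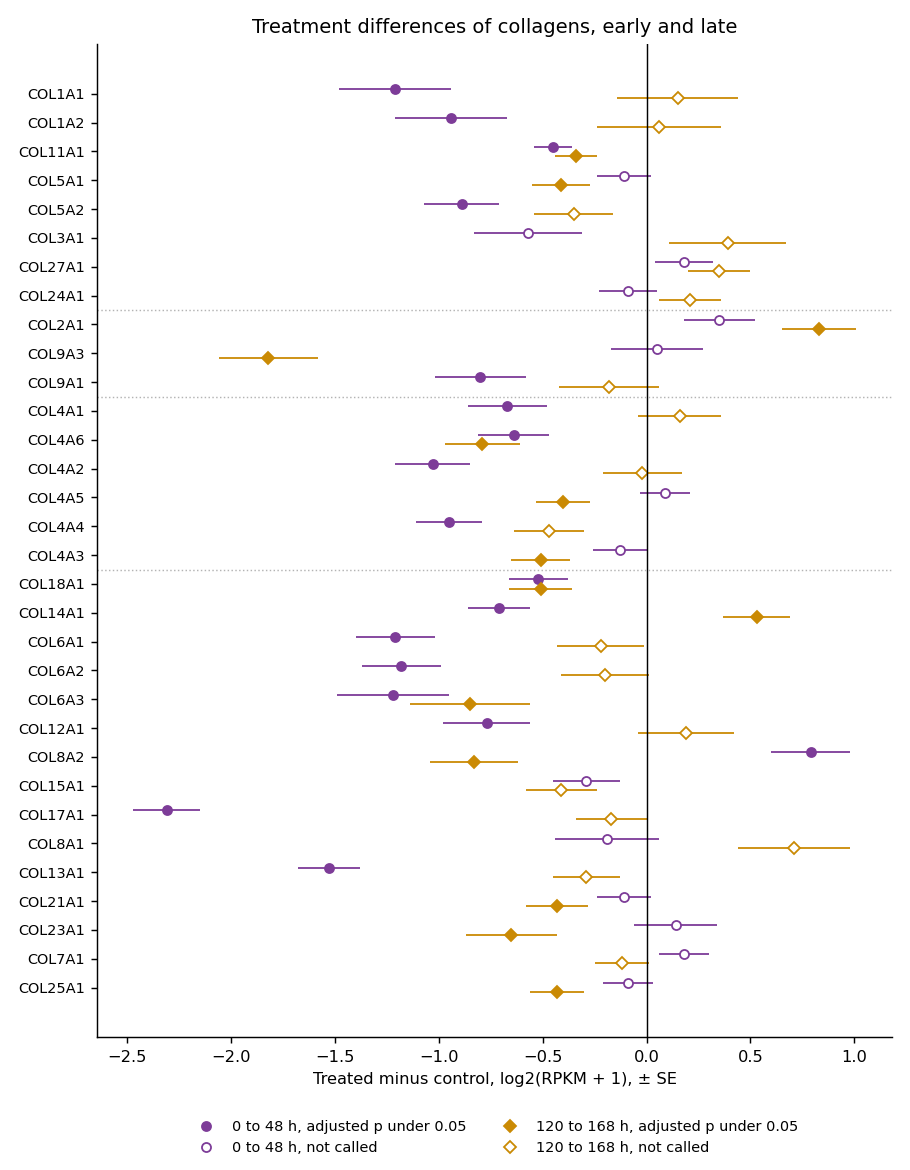
Fitted treated-minus-control differences (log2 scale of RPKM + 1, ± SE) of the 32 tested collagens at 0 to 48 h and 120 to 168 h, ordered by class. Filled symbols mark an adjusted p under 0.05, and COL17A1 had the largest early fall (-2.31) and COL9A3 the largest late fall (-1.82).

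Averaged over all times, 17 collagens were lower and 2 (COL2A1 and COL27A1) higher in treated papillae, where 41.9% of all features were called, 21.7% lower and 20.2% higher. The number higher was 1 without control 72 h sample 1. The median was -0.32 over the collagens and 0.01 over all features. By single times, in the fit without the replicate block, most falls were at 0 and 24 h. At 0 h, 11 collagens fell and 0 rose, where 25.5% of features were called (10.9% lower), and at 24 h 12 fell and 1 rose, where 36.7% were called (18.3% lower, 18.4% higher). At 48 h 5 fell and 3 rose, where 27.6% were called (13.9% lower, 13.8% higher). At 72 h, with 1 control sample, 7 fell and 1 rose, where 13.8% were called (7.50% lower, 6.25% higher). At 96 h, with 1 sample in each arm, 2 rose and 0 fell, where 3.93% were called (1.85% higher). At 120 h no collagen was called by limma, where 2.55% of features were called (2.28% lower), and 1, COL2A1, had an unadjusted p under 0.05. At 144 h 3 fell and 0 rose, where 5.88% were called (4.30% lower), and at 168 h 1 fell and 0 rose, where 1.16% were called (1.03% lower). With the block, 20, 16, 11, 7, 0, 1, 7 and 5 fell and 0, 1, 4, 1, 3, 1, 1 and 0 rose from 0 to 168 h in order of time, and the share of all features called was 36.3%, 46.1%, 38.5%, 15.1%, 9.21%, 5.98%, 14.8% and 5.03%.

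Among the fibrillar collagens, type I and its companion COL5A2 fell early in treated papillae. COL1A1, which encodes the more abundant chain of type I collagen in bone, skin and tendon, had a lowest, median and highest level of 6.39, 10.8 and 40.1 RPKM in early treated samples, against 19.4, 26.0 and 68.4 RPKM in early controls. Each of the 6 treated samples lay below the control mean of its own time, although the groups overlapped because both arms were higher at 48 h. The early difference was -1.21 ± 0.27 (adjusted p = 0.00116). In the late window treated samples ranged over 53.4, 75.7 and 110.5 RPKM, and the 5 controls had 79.9 RPKM (120 h), 59.5 and 43.6 RPKM (144 h) and 158 and 40.6 RPKM (168 h). The late groups overlapped, with control 168 h sample 1 above all others, and the difference of 0.15 ± 0.29 did not pass (adjusted p = 0.762). The change of the difference between windows passed (1.37 ± 0.39, adjusted p = 0.0131). At 72 h COL1A1 stood at 44.1 and 22.4 RPKM in treated samples and 151 RPKM in the single control (-2.22 ± 0.57, adjusted p = 0.0152). Over all times its difference was -0.69 ± 0.23 (adjusted p = 0.0173), and without that 72 h control it was -0.52 (adjusted p = 0.0607).

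COL1A2, the partner chain of COL1A1, followed the same course. Early treated samples had 2.53, 5.78 and 24.2 RPKM (lowest, median and highest) and early controls 7.78, 10.7 and 32.3 RPKM, a difference of -0.94 ± 0.27 (adjusted p = 0.00865). Every early treated sample was below the control mean of its time. Late, treated samples had 33.7, 40.4 and 62.0 RPKM, and controls had 47.6 RPKM (120 h), 43.2 and 27.9 RPKM (144 h) and 87.0 and 23.2 RPKM (168 h), with overlap and no call (0.06 ± 0.30, adjusted p = 0.92). Its change of difference (0.99 ± 0.40) missed the threshold (adjusted p = 0.0657), and with the replicate block it passed (1.13, adjusted p = 0.00687). Its fall over all times (-0.54 ± 0.20, adjusted p = 0.0363) was lost with that block (-0.45, adjusted p = 0.0634). It was also lost in 13 of 28 fits that left out 1 library, most without control 72 h sample 1 (-0.40, adjusted p = 0.115). Between the windows COL1A1 rose by 2.39 ± 0.27 in treated papillae and 1.02 ± 0.29 in controls, and COL1A2 rose by 2.48 ± 0.27 in treated papillae and 1.49 ± 0.30 in controls.

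COL5A2, whose chain regulates the width of type I fibrils, fell early by 0.89 on the log2 scale (adjusted p = 0.000532). It had 2.15 to 8.30 RPKM in treated and 5.10 to 16.3 RPKM in control samples. COL3A1, the fibrillar chain of pliable tissues, missed the threshold early (-0.57 ± 0.26, adjusted p = 0.0804) and passed with the replicate block (-0.57, adjusted p = 0.0237). COL11A1 encodes a chain of the thin fibrils of cartilage and of the tectorial membrane of mammals. It stayed at 14.9 to 25.2 RPKM in treated and 21.5 to 35.5 RPKM in control samples across the series. Its early difference was -0.45 ± 0.09 (adjusted p = 0.000411) and its late one -0.34 ± 0.10 (adjusted p = 0.0199). Late, treated samples had 18.0, 20.9 and 23.6 RPKM, and the controls had 27.8 RPKM (120 h), 24.2 and 26.3 RPKM (144 h) and 24.3 and 25.9 RPKM (168 h). Those late groups did not overlap, but the adjusted p was 0.0662 after rescaling and 0.0508, 0.055 and 0.0573 without control 144 h sample 2, treated 144 h sample 1 and treated 168 h sample 1. No change with time was called for COL11A1 in either arm.

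COL27A1, a fibrillar collagen of cartilage, went the other way over all times (0.45 ± 0.15, adjusted p = 0.019). The lowest, median and highest levels were 4.93, 8.36 and 13.8 RPKM in the 15 treated samples and 3.66, 5.36 and 13.7 RPKM in the 13 controls, and 11 of the 15 treated samples exceeded the control mean of their time. Its largest rise was at 72 h, with 11.3 and 13.7 RPKM in treated samples and 3.66 RPKM in the single control (1.53 ± 0.30, adjusted p = 0.00264). The call over all times was lost without 72, 96 and 120 h (0.23, adjusted p = 0.244), without that control (0.33, adjusted p = 0.0669) and with the replicate block (0.39, adjusted p = 0.0662). COL5A1 had 21.1 to 26.2 RPKM in late treated samples and 29.3 to 33.2 RPKM in late controls. Its late fall (-0.41 ± 0.14, adjusted p = 0.0472) was lost in 21 of 28 fits that each left out 1 library, with a value between -0.46 and -0.36. COL24A1 changed between the arms in none of the windowed comparisons and was lower late in treated (-0.34) and control (-0.64) papillae, the treated call being lost in 18 of 28 such fits (-0.45 to -0.22).

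Type VI collagen had the largest rises with time. The chains COL6A1, COL6A2 and COL6A3 assemble together into microfibrils around mesenchymal cells. COL6A1 was between 1.52 and 12.9 RPKM in early treated samples (median 2.87 RPKM) and between 4.60 and 24.6 RPKM in early controls (median 9.05 RPKM). All 6 treated samples were below the control mean of their time, the groups overlapped, and the difference was -1.21 ± 0.19 (adjusted p = 6.46e-05). Late, it had 34.2, 43.6 and 56.0 RPKM (lowest, median, highest) in treated samples, and 47.5 RPKM (120 h), 51.6 and 37.9 RPKM (144 h) and 89.9 and 46.2 RPKM (168 h) in controls. These overlapped and the difference of -0.22 ± 0.21 was not called (adjusted p = 0.511). COL6A1 rose with time by 3.17 ± 0.19 in treated and 2.18 ± 0.21 in control papillae, and its treatment difference changed by 0.99 ± 0.28 (adjusted p = 0.0127).

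COL6A2 gave similar values, with 0.955, 2.22 and 15.4 RPKM in early treated and 3.42, 9.38 and 23.3 RPKM in early control samples (-1.18 ± 0.19, adjusted p = 6.89e-05). Its change with time of 3.23 ± 0.19 in treated papillae was the largest of any collagen in that comparison, against 2.24 ± 0.21 in controls. Late, COL6A2 had 34.3, 42.0 and 55.0 RPKM in treated samples and 43.1, 45.3, 42.7, 71.6 and 45.9 RPKM in controls, with overlap and no call (-0.20 ± 0.21, adjusted p = 0.554). Over all times its fall of 0.56 on the log2 scale (adjusted p = 0.0173) was lost with the replicate block (-0.52, adjusted p = 0.0617).

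COL6A3, which encodes the longest of the chains, stayed lower late. It had 1.07, 3.49 and 7.96 RPKM in early treated and 4.56, 9.69 and 16.4 RPKM in early control samples (-1.22 ± 0.27, adjusted p = 0.00115). Late treated samples had 23.1, 27.6 and 33.2 RPKM, and controls had 54.0 RPKM (120 h), 59.4 and 41.0 RPKM (144 h) and 62.9 and 36.4 RPKM (168 h). These late groups did not overlap, although the call sat at the threshold (-0.85 ± 0.29, adjusted p = 0.0481). It was lost in 20 of 28 fits that left out 1 library, with values of -0.98 to -0.72 and the same sign throughout. COL6A6 was not tested.

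**Figure D3:**
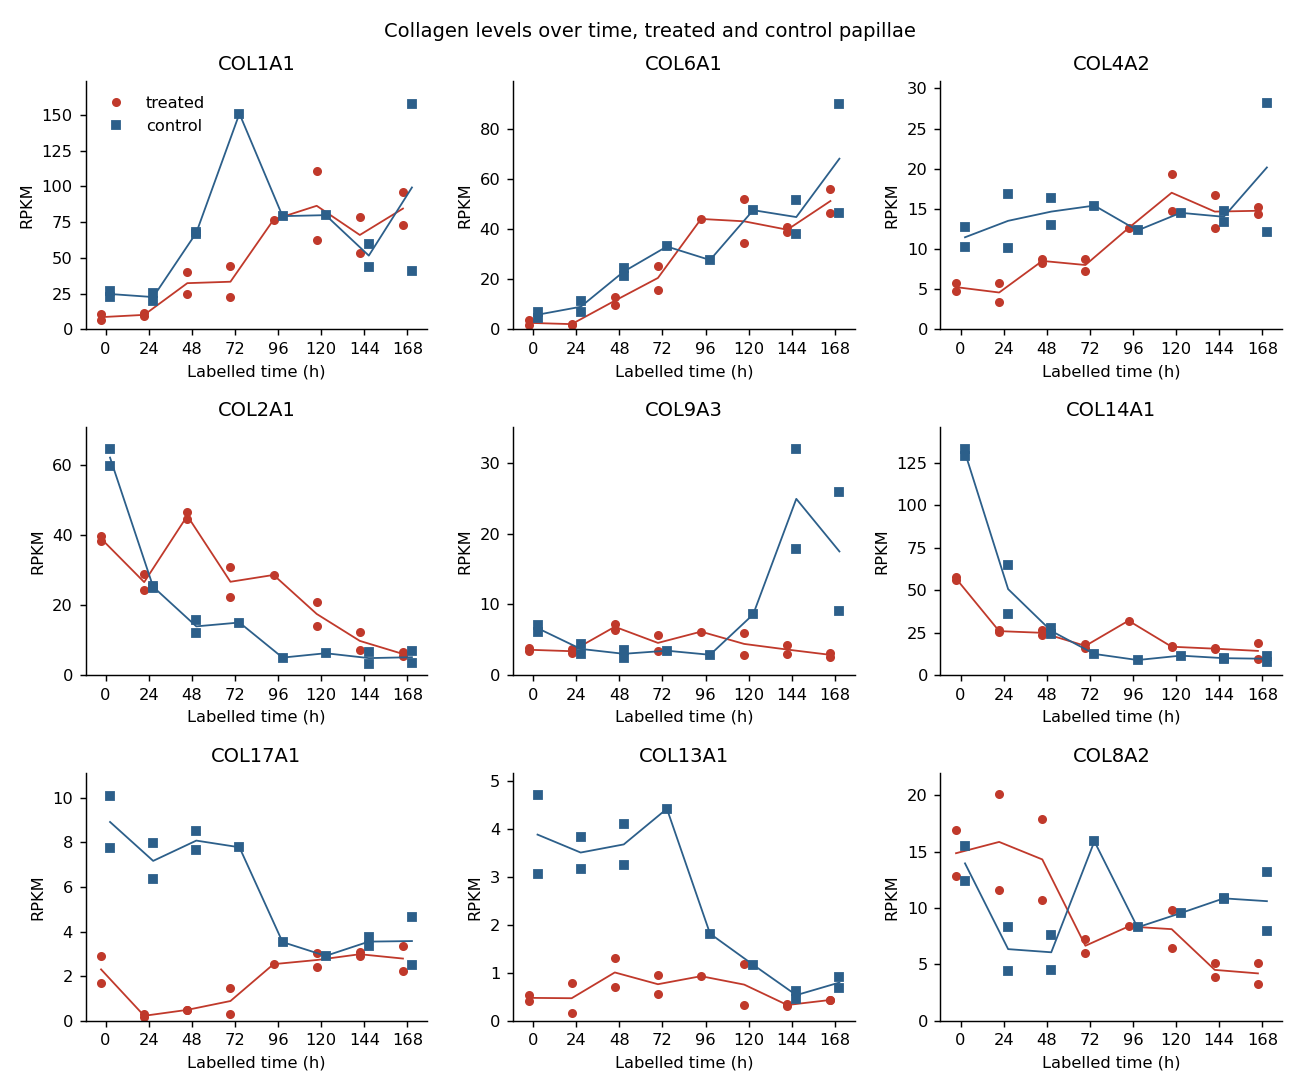
RPKM of 9 collagens by labelled time (h), with 1 point per sample and lines through the mean of each time (treated circles, control squares). COL6A1 climbed in each arm, COL17A1 reached 0.154 RPKM in treated samples while early controls stayed at or above 6.35 RPKM, and COL9A3 reached 32.0 RPKM in late controls but not above 5.96 RPKM in late treated samples.

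The cartilage collagens moved in different directions from each other. COL2A1 encodes the main fibrillar chain of cartilage, which in mammals is also a component of the tectorial membrane. It declined with time in each arm. The decline was 1.76 on the log2 scale in treated papillae (adjusted p = 1.98e-07) and 2.23 in controls (adjusted p = 5.98e-08). The arms were furthest apart at 48 and 96 h. At 72 h, between these times, treated samples had 22.4 and 30.9 RPKM and the single control 15.0 RPKM, with no call. At 0 h COL2A1 had 39.6 and 38.4 RPKM in treated and 59.8 and 64.5 RPKM in control samples, and at 48 h 44.5 and 46.5 RPKM in treated and 12.1 and 15.7 RPKM in control samples. The 48 h difference of 1.65 ± 0.30 passed (adjusted p = 0.000606), as did that at 96 h, where the single treated sample had 28.6 RPKM and the single control 4.97 RPKM (2.31 ± 0.42, adjusted p = 0.00325).

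Over the early window as a whole COL2A1 spanned 24.2, 39.0 and 46.5 RPKM in treated and 12.1, 25.2 and 64.5 RPKM in control samples and was not called (0.35 ± 0.17, adjusted p = 0.0947). With the replicate block this passed (0.35, adjusted p = 0.00535). In the fit with that block COL2A1 was called lower at 0 h, so the early mean joins a fall at 0 h with the rise at 48 h. Late, it had 5.45, 9.73 and 20.8 RPKM in treated samples and 6.22, 3.21, 6.44, 6.83 and 3.33 RPKM in controls. All 6 late treated samples exceeded the control mean of their time, the groups overlapped, and the difference was 0.83 ± 0.18 (adjusted p = 0.0048). That call was lost without control 120 h sample 1, the single control of its time (0.58, adjusted p = 0.072). Over all times COL2A1 was higher by 0.70 ± 0.20 (adjusted p = 0.00696), and the call was lost without 72, 96 and 120 h (0.44, adjusted p = 0.113).

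COL9A3, a chain of the type IX collagen that decorates type II fibrils, separated the arms late. Treated samples of the late window had 2.54, 3.06 and 5.96 RPKM (lowest, median and highest). The controls had 8.58 RPKM (120 h), 17.9 and 32.0 RPKM (144 h) and 9.10 and 25.9 RPKM (168 h), so that each of them exceeded every treated sample. The difference of -1.82 ± 0.24 (adjusted p = 5.66e-05) was the largest late fall among the collagens and remained called in every alternative, at -2.28 to -1.58 when single libraries were left out. Early there was no call (0.05 ± 0.22, adjusted p = 0.862), with 3.06, 3.75 and 7.24 RPKM in treated and 2.43, 4.02 and 7.15 RPKM in control samples. COL9A3 rose with time in controls (1.61 ± 0.24, adjusted p = 2.81e-05) and was not called in treated papillae (-0.26 ± 0.22, adjusted p = 0.325), and the change of its treatment difference was -1.87 ± 0.32 (adjusted p = 0.000388). It was the largest passing fall at 144 h (-2.45 ± 0.38) and was called at 168 h (-2.10 ± 0.38), as the only collagen without the replicate block and as 1 of 5 with it.

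COL9A1, another chain of the same trimer, fell early instead. It had 0.241, 1.34 and 3.35 RPKM in early treated and 1.39, 3.42 and 4.57 RPKM in early control samples (-0.80 ± 0.22, adjusted p = 0.00598). In the late window treated samples had 2.61, 3.30 and 4.12 RPKM and controls had 3.99, 3.07, 4.21, 4.47 and 3.85 RPKM, which overlapped (-0.18 ± 0.24, adjusted p = 0.659). Hence the ratio of COL9A3 to COL9A1 was 0.994 to 12.7 in early treated and 0.560 to 2.45 in early control samples, but 0.712 to 1.45 in late treated and 2.03 to 7.59 in late control samples. In the reference gene table the range of COL9A1 overlaps that of COL19A1, and the strand of the libraries is not stated, so reads of these neighbours may be shared. Summed levels of 7 cartilage cell markers were 20.1 to 26.4 RPKM in treated and 19.8 to 23.2 RPKM in control samples late. Of 6 tested, 0 were called, where 19.4% of all features were called. Early the sums were 39.5 to 54.8 RPKM in treated and 17.5 to 49.4 RPKM in control samples. Of the 6, 1 was called higher and 3 lower, where 27.6% of all features were higher and 23.5% lower. Among the 3, HAPLN1 reached 1 RPKM in control samples alone and passed the filter only through them. MATN1, a matrilin of cartilage, was at 0 in all 6 early treated samples and at most 0.0778 RPKM in any sample. SOX9, which supporting cells of the ear also express, accounted for most of the sum in early treated samples (34.9 to 45.4 RPKM), and had 7.89 to 23.4 RPKM in early controls. Supporting cell marker sums moved with it, at 574 to 898 RPKM in early treated and 85.1 to 304 RPKM in early control samples, with 7 of 7 called higher. The part of these cells in the COL2A1 and other cartilage collagen results was not tested.

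Among the type IV chains the ubiquitous pair was lower early and not called late. COL4A1 and COL4A2 form the common trimer of most basement membranes. COL4A1 had 5.45, 10.4 and 11.5 RPKM in early treated and 10.9, 16.1 and 19.6 RPKM in early control samples, overlapping by 1 control (-0.67 ± 0.19, adjusted p = 0.00632). COL4A2 had 3.34, 5.76 and 8.78 RPKM in early treated and 10.1, 12.8 and 16.9 RPKM in early control samples. These did not overlap, and the difference was -1.03 ± 0.18 (adjusted p = 0.000125).

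Late, COL4A1 had 14.7, 19.2 and 28.2 RPKM in treated samples and 16.1, 16.3, 15.6, 31.7 and 12.7 RPKM in controls (0.16 ± 0.20, adjusted p = 0.645). COL4A2 had 12.6, 14.9 and 19.3 RPKM in treated samples and 14.5, 14.7, 13.3, 28.2 and 12.1 RPKM in controls (-0.02 ± 0.19, adjusted p = 0.955). Control 168 h sample 1 was again the highest for each. Apart from it, every treated sample but treated 144 h sample 1 (14.7 RPKM) exceeded all controls for COL4A1. For COL4A2 the arms otherwise interleaved. In treated papillae COL4A1 rose with time by 0.96 ± 0.19 and COL4A2 by 1.25 ± 0.18, whereas in controls neither was called (0.13 ± 0.20 and 0.25 ± 0.19). The change of the treatment difference was 1.01 ± 0.26 for COL4A2 (adjusted p = 0.0066) and 0.83 ± 0.28 for COL4A1 (adjusted p = 0.0274). The COL4A1 call was lost without any 1 of 7 libraries, lowest without treated 24 h sample 1 or treated 120 h sample 1 (0.72 each) and control 120 h sample 1 (0.68, adjusted p = 0.0908). It was also lost without control 0 h sample 2 (0.79), control 24 h sample 2 (0.75), control 48 h sample 2 (0.78) or treated 144 h sample 2 (0.75).

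Of the tissue-restricted chains, COL4A4 had the same calls as COL4A1 and COL4A2, lower early and not called late, and the others did not. COL4A6, a chain of epithelial and smooth muscle basement membranes, was lower in all 15 treated samples than the control mean of their time. Early treated samples had 5.88, 10.6 and 16.1 RPKM and early controls 12.4, 17.5 and 23.7 RPKM (-0.64 ± 0.17, adjusted p = 0.00402). Late treated samples had 8.36, 11.9 and 14.6 RPKM and late controls 17.8 RPKM (120 h), 19.3 and 27.6 RPKM (144 h) and 19.8 and 23.5 RPKM (168 h), without overlap (-0.79 ± 0.18, adjusted p = 0.00605). This late call held in every alternative. COL4A5, its partner, was not called early (0.09 ± 0.12, adjusted p = 0.558) and was lower late (-0.40 ± 0.13, adjusted p = 0.0332), at 3.94 to 6.59 RPKM in treated and 6.73 to 7.98 RPKM in control samples. That late call was lost in 8 of 28 fits without 1 library (-0.45 to -0.35), namely those without treated 120 h sample 2, treated 144 h sample 1 or 2, treated 168 h sample 1, control 120 h sample 1, control 144 h sample 1 or 2, or control 168 h sample 2.

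COL4A3 and COL4A4 form with COL4A5 the trimer mutated in human Alport syndrome, a disease of kidney and hearing. Their early calls differed. COL4A4 fell early, with 1.06, 1.68 and 2.43 RPKM in treated and 3.20, 4.05 and 6.25 RPKM in control samples and no overlap (-0.95 ± 0.16, adjusted p = 9.09e-05), and COL4A3 did not pass (-0.13 ± 0.13, adjusted p = 0.443). In the late window their differences were close. COL4A3 fell (-0.51 ± 0.14, adjusted p = 0.0204) and COL4A4 missed the threshold (-0.47 ± 0.17, adjusted p = 0.0601). The COL4A3 call was lost without control 144 h sample 2 (-0.38, adjusted p = 0.0622) or treated 144 h sample 1 (-0.39, adjusted p = 0.0606), and with the replicate block COL4A4 passed (-0.46, adjusted p = 0.0138). Endothelium is another source of basement membrane. Summed levels of its markers (7 of 8 listed) were 2.66 to 4.58 RPKM in treated and 3.28 to 8.18 RPKM in control samples early. Of 4 tested, 1 was called lower, where 23.5% of all features were lower. Among the 4, ESAM passed the filter only through control samples. The part of endothelium was not tested.

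Of the other types, the transmembrane collagens COL17A1 and COL13A1 showed the deepest early falls. COL17A1, which anchors epithelial cells to the basement membrane at hemidesmosomes, had 2.90 and 1.71 RPKM (0 h), 0.293 and 0.154 RPKM (24 h) and 0.497 and 0.483 RPKM (48 h) in treated samples. Controls had 10.1 and 7.73 RPKM (0 h), 7.99 and 6.35 RPKM (24 h) and 8.51 and 7.65 RPKM (48 h). No treated sample came near a control, and the difference was -2.31 ± 0.16 (adjusted p = 4.2e-09). At 72 h it was still lower, with 1.48 and 0.293 RPKM in treated samples and 7.78 RPKM in the single control (-2.29 ± 0.34, adjusted p = 0.000238). By the late window the arms overlapped, with 2.24, 2.98 and 3.34 RPKM in treated samples and 2.91, 3.74, 3.36, 4.67 and 2.48 RPKM in controls (-0.17 ± 0.17, adjusted p = 0.546). COL17A1 rose with time in treated papillae (1.08 ± 0.16, adjusted p = 2.49e-05) and fell in controls (-1.07 ± 0.17, adjusted p = 8.24e-05). Its change of difference, 2.14 ± 0.24 (adjusted p = 7.96e-06), was the largest of the collagens.

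COL13A1, a transmembrane collagen of cell adhesion sites and neuromuscular junctions, had 0.157, 0.621 and 1.32 RPKM in early treated and 3.07, 3.55 and 4.71 RPKM in early control samples. The groups were fully apart (-1.53 ± 0.15, adjusted p = 2.59e-07), and COL13A1 was the largest passing fall at 0 h (-1.71 ± 0.26). Between the windows COL13A1 fell in controls (-1.36 ± 0.16, adjusted p = 2.66e-06) and was not called in treated papillae (-0.13 ± 0.15, adjusted p = 0.49). Late levels were 0.318, 0.384 and 1.19 RPKM in treated samples and 1.17, 0.453, 0.619, 0.912 and 0.687 RPKM in controls (-0.29 ± 0.16, adjusted p = 0.212). Hair cell marker sums also fell with time in controls, to 70.4 to 139 RPKM late against 194 to 324 RPKM early. In treated papillae 5 of 8 hair cell markers rose with time and 1 fell. The part of hair cells in the COL13A1 and COL17A1 results was not tested. COL23A1, a further transmembrane type, rose in controls (1.17 ± 0.22, adjusted p = 0.000278), with 1.31 to 2.60 RPKM late and 0.0874 to 0.895 RPKM early. Late it had 1.76 and 0.342 RPKM (120 h), 1.55 and 0.290 RPKM (144 h) and 0.453 and 1.80 RPKM (168 h) in treated samples, and 2.07, 1.31, 1.83, 2.60 and 2.34 RPKM in controls (-0.65 ± 0.22, adjusted p = 0.0439). That call was lost in 18 of 28 fits that left out 1 library (-0.82 to -0.48) and with the replicate block (-0.48, adjusted p = 0.119).

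COL14A1, a fibril-associated collagen of dense connective tissue, fell steeply with time. Treated samples had 55.9 and 57.8 RPKM at 0 h, 25.3 and 26.4 RPKM at 24 h, 26.3 and 23.4 RPKM at 48 h and 9.50 to 18.9 RPKM late. Controls had 133 and 129 RPKM at 0 h, 65.0 and 36.2 RPKM at 24 h, 24.1 and 27.8 RPKM at 48 h and 7.78 to 11.4 RPKM late. Controls thus began higher and ended lower, and the change between windows was -1.08 ± 0.15 in treated and -2.32 ± 0.16 in control papillae. Treated papillae were lower early (-0.71 ± 0.15, adjusted p = 0.000652) and higher late (0.53 ± 0.16, adjusted p = 0.0266), and the change of difference was 1.24 ± 0.22 (adjusted p = 0.000423). At 96 h COL14A1 had 32.0 RPKM in the treated and 8.81 RPKM in the control sample (1.75 ± 0.36, adjusted p = 0.008). The late rise was lost without treated 168 h sample 1 (0.38, adjusted p = 0.0766) or control 168 h sample 2 (0.45, adjusted p = 0.076). It was also lost, at values of 0.51 to 0.54, without control 120 h sample 1, treated 120 h sample 1, control 144 h sample 2 or treated 144 h sample 2. COL12A1, of the same subfamily, fell early (-0.77 ± 0.21, adjusted p = 0.00516), most at 24 h with 5.25 and 5.37 RPKM in treated and 20.2 and 14.0 RPKM in control samples. At 0 h its arms overlapped, at 20.3 and 16.9 RPKM in treated and 19.3 and 17.9 RPKM in control samples.

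COL18A1, the most abundant collagen, was lower in treated papillae in both windows. Early it had 27.1, 51.1 and 64.9 RPKM in treated and 41.0, 68.9 and 102 RPKM in control samples (-0.52 ± 0.14, adjusted p = 0.00473). Late it had 56.9, 78.4 and 90.8 RPKM in treated samples, and 109 RPKM (120 h), 108 and 127 RPKM (144 h) and 93.2 and 115 RPKM (168 h) in controls. All 6 treated samples of each window lay below the control mean of their time, and the late groups did not overlap (-0.51 ± 0.15, adjusted p = 0.025). The late call was lost without treated 120 h sample 1 (-0.46), control 144 h sample 2 (-0.47), treated 144 h sample 1 (-0.48), control 168 h sample 2 (-0.46) or treated 168 h sample 1 (-0.40, adjusted p = 0.0778). COL18A1 rose with time by 0.71 ± 0.14 in treated and 0.70 ± 0.15 in control papillae.

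COL8A2, a short-chain network collagen known from the membrane beneath the corneal endothelium, was the 1 collagen higher early and was lower late. Early it had 10.7, 14.8 and 20.1 RPKM in treated and 4.42, 7.94 and 15.5 RPKM in control samples, 5 of 6 treated samples exceeding the control mean of their time (0.79 ± 0.19, adjusted p = 0.00246). Late it had 3.24, 5.15 and 9.83 RPKM in treated and 9.54, 10.9, 10.8, 8.00 and 13.2 RPKM in control samples, with overlap through 1 treated sample at 120 h (-0.83 ± 0.21, adjusted p = 0.0103). The change of difference was -1.63 ± 0.28 (adjusted p = 0.000448). COL8A2 fell with time in treated papillae (-1.31 ± 0.19, adjusted p = 2.12e-05), while controls were not called (0.32 ± 0.21, adjusted p = 0.222). At 0 h it had 12.8 and 16.9 RPKM in treated and 12.4 and 15.5 RPKM in control samples. At 24 and 48 h treated samples had 10.7 to 20.1 RPKM and controls 4.42 to 8.28 RPKM, so controls also changed within the early window. COL8A1, the other chain of type VIII, rose with time in treated papillae (1.15 ± 0.25, adjusted p = 0.000754) and was not called late against controls (0.71 ± 0.27, adjusted p = 0.0724), a comparison that passed with the replicate block (0.79, adjusted p = 0.0401). The other low members of this class (COL15A1, COL21A1, COL25A1 and COL7A1) lay between 0.154 and 6.79 RPKM in all samples, and their early and late treatment differences lay between -0.43 and 0.18. COL21A1 passed late (-0.43) and lost that call in 17 of 28 fits without 1 library.

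Collagen output shifted in composition as well as amount. The share of the cartilage collagens in summed collagen RPKM was 13.7% to 14.9% in early treated samples and 4.21% to 13.1% in early controls, without overlap. By time it was 14.7% and 14.0% in treated and 13.1% and 13.1% in control samples at 0 h, and 13.7% and 14.9% in treated and 4.21% and 4.60% in control samples at 48 h. Late it was 2.13% to 4.82% in treated and 2.33% to 7.38% in control samples. In amount, the cartilage collagens summed to 46.3 and 43.2 RPKM in treated and 69.4 and 74.5 RPKM in control samples at 0 h. At 24 h the sums were 27.5 and 33.8 RPKM in treated and 29.8 and 33.9 RPKM in control samples. Only at 48 h were treated samples higher, at 53.2 and 55.3 RPKM against 18.9 and 22.7 RPKM among these early times. Supporting cell marker sums of the arms did not overlap early either, and their part in the cartilage share was not tested. The type VI share was 1.31% to 9.39% in early treated and 2.25% to 13.0% in early control samples, and 18.4% to 26.1% in late treated and 21.1% to 25.7% in late control samples. Type I took 2.89% to 16.6% in early treated and 5.38% to 22.4% in early control samples, against 18.1% to 27.9% in late treated and 11.9% to 28.1% in late control samples. The basement membrane share stayed between 7.98% and 15.9% in treated and between 8.30% and 18.1% in control samples across all times.

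**Figure D4:**
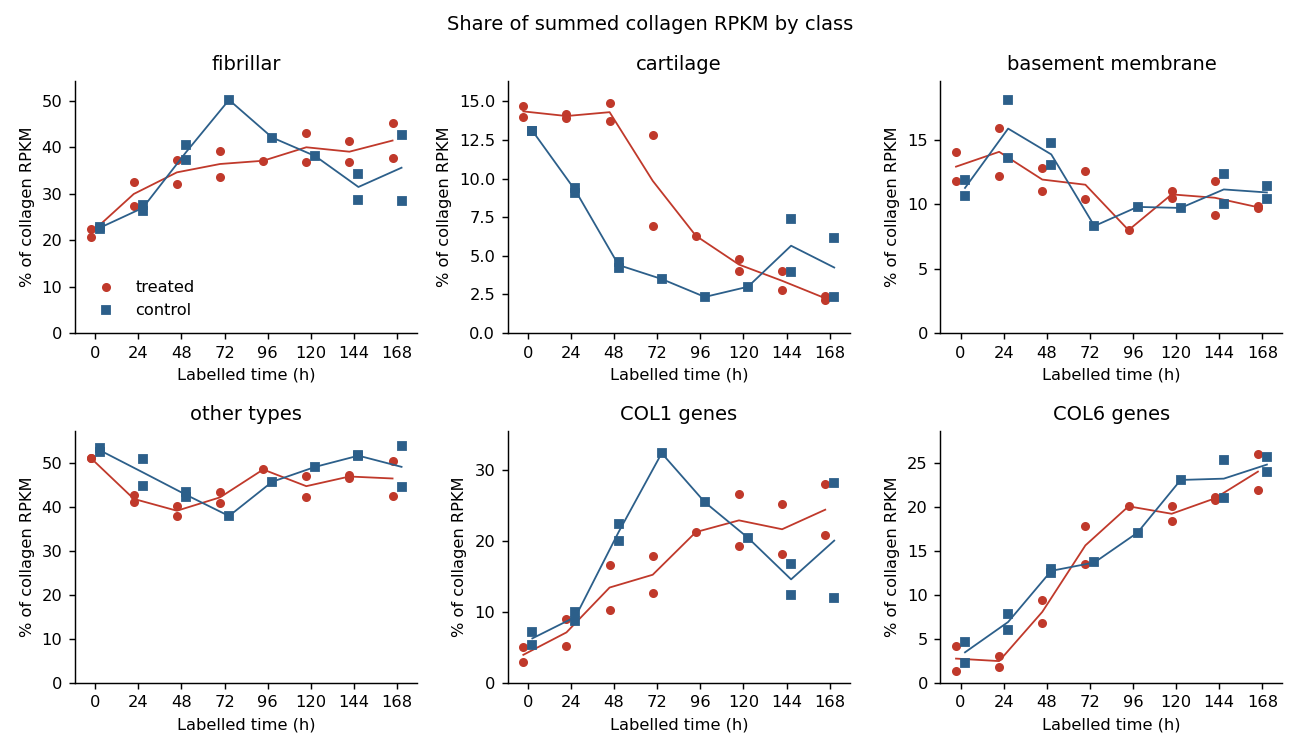
Share of summed collagen RPKM (percent) by labelled time (h) for the 4 classes and for the COL1 and COL6 genes, with 1 point per sample and lines through the mean of each time. The cartilage share of treated samples stayed at 13.7% to 14.9% through 48 h, when controls were at 4.21% and 4.60%, and the COL6 share climbed in each arm.

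Chains that assemble together did not always keep a fixed ratio. COL1A1 to COL1A2 was 1.34 to 2.53 in treated and 1.38 to 2.93 in control samples over all times, and COL6A1 to COL6A2 was 0.767 to 1.59 in treated and 0.845 to 1.59 in control samples. By time, COL1A1 to COL1A2 overlapped between the arms at 0 and 24 h. At 48 h it was 1.66 and 1.79 in treated and 2.12 and 2.08 in control samples. At 72 h it was 1.65 and 1.55 in treated samples and 2.16 in the single control. Late it overlapped again, at 1.34 to 1.99 in treated and 1.38 to 1.82 in control samples. COL4A1 to COL4A2 was 2.07 and 1.98 in treated and 1.60 and 1.55 in control samples at 0 h, and 1.63 and 1.61 in treated and 1.08 and 0.944 in control samples at 24 h. By the late window it was 1.17 to 1.47 in treated and 1.06 to 1.18 in control samples. COL4A5 to COL4A6 was 0.550 to 1.05 in early treated and 0.369 to 0.570 in early control samples. The ratio of COL6A3 to COL6A1 was 0.545 to 0.684 in late treated and 0.699 to 1.15 in late control samples, without overlap. These ratios were not tested.

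In the reference gene table COL4A1 and COL4A2 (chromosome 1), COL4A3 and COL4A4 (chromosome 9), COL4A5 and COL4A6 (chromosome 4), COL6A1 and COL6A2 (chromosome 7) and COL3A1 and COL5A2 (chromosome 7) are neighbours with no protein-coding gene between them. The ranges of COL4A1 and COL4A2, and of COL4A3 and COL4A4, overlap there. The sources used here do not say how reads in such overlaps were counted, and the split between these partners is uncertain. The pair COL4A3 and COL4A4 nevertheless differed in its early calls, as did COL4A5 and COL4A6, and no test of the difference between partners was run.

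**Figure D5:**
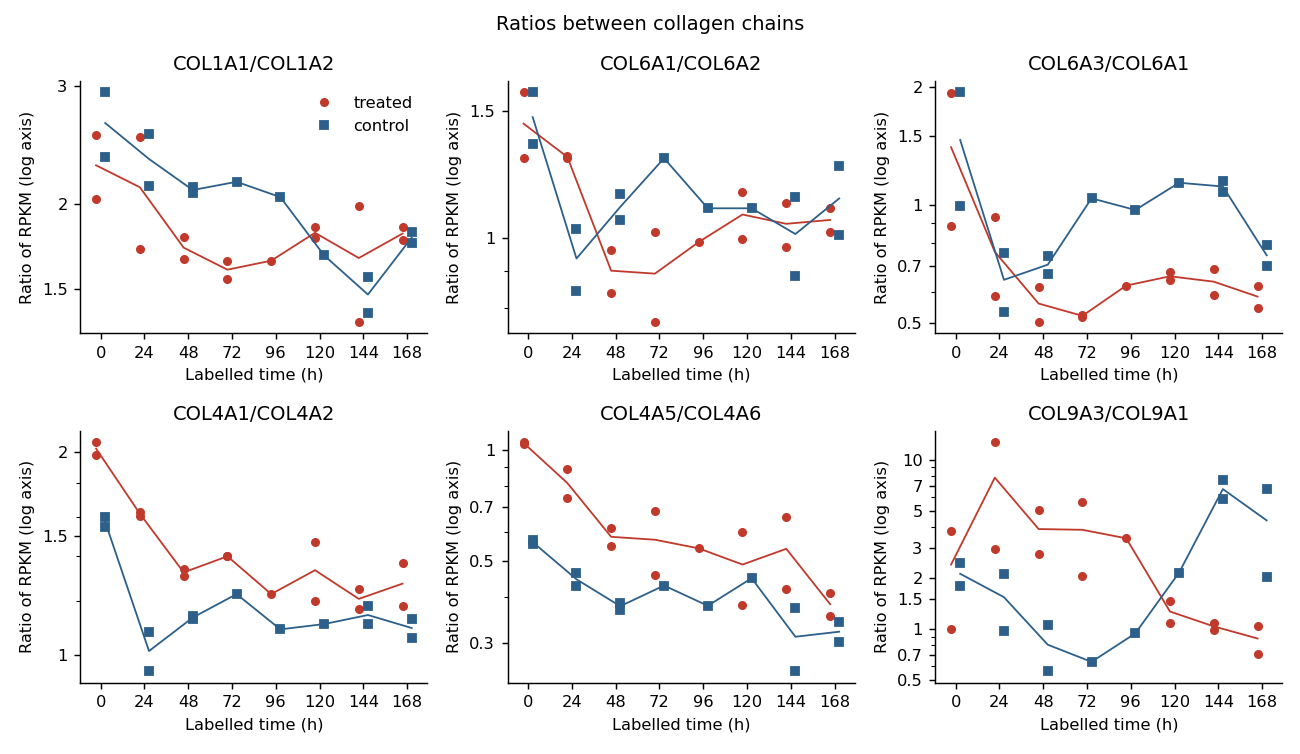
Ratios of RPKM between collagen chains (log axis) by labelled time (h), with 1 point per sample and lines through the mean of each time. COL4A1/COL4A2 and COL4A5/COL4A6 were higher in treated than control samples at 0 and 24 h, and COL9A3/COL9A1 was 0.712 to 1.45 in late treated and 2.03 to 7.59 in late control samples.

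Some genes that make and bind collagen also fell early, in a comparison where 23.5% of all features fell and 27.6% rose. Of 18 tested genes for collagen modification and folding, 9 fell, 0 rose and 9 were not called in treated papillae at 0 to 48 h (median -0.35). The falls were led by P4HB, a subunit of prolyl hydroxylase (-0.93 ± 0.12), CREB3L1, a transcription factor of collagen secretion (-0.88 ± 0.17), and CRTAP, of the prolyl 3-hydroxylase complex (-0.79 ± 0.12). Of 9 tested genes for processing and cross-linking, 8 fell and 0 rose (median -0.67), among them the cross-linking enzymes LOXL2 (-1.18 ± 0.16) and LOX (-1.11 ± 0.20) and the collagen-binding SPARC (-1.08 ± 0.17). Of 5 collagen receptors, 4 fell, including DDR2, a tyrosine kinase that binds fibrillar collagen (-0.85 ± 0.15). Late, 6 of 18, 4 of 9 and 2 of 5 of these lists fell and none rose, where 15.1% of all features fell, with PLOD1, a lysyl hydroxylase, at -0.66 ± 0.09 and LOXL2 at -0.75 ± 0.17. Over all times 10, 7 and 5 fell and none rose, where 21.7% of all features fell.

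Most members of these lists changed with time. In treated papillae 13 modification genes rose and 3 fell, 7 processing genes rose and 1 fell, and 4 of 5 receptors rose, where 24.8% of all features rose and 29.9% fell. In controls 13 modification genes rose and 2 fell, 3 processing genes rose and 1 fell, and 5 of 5 receptors rose, where 28.7% rose and 20.3% fell. SERPINH1, the collagen chaperone HSP47, rose by 1.80 ± 0.12 in treated and 2.01 ± 0.13 in control papillae, and DDR2 by 2.36 ± 0.15 in treated and 1.58 ± 0.17 in control papillae. The change of the treatment difference was higher for 3 of 18 modification genes, 2 of 9 processing genes and 1 of 5 receptors, and lower for none. Of all features, 12.6% were higher and 21.9% lower in that comparison. The genes called included LOXL3 (1.09 ± 0.20) and DDR2 (0.78 ± 0.23).

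Of 16 tested partners of the basement membrane, 7 fell, 1 rose and 8 were not called early (median -0.16), where 23.5% of all features fell and 27.6% rose. Late, 10 fell and 0 rose (median -0.46), where 15.1% of all features fell and 4.31% rose. LAMB2, a laminin beta chain, led the early falls (-1.04 ± 0.15), and the 1 rise was LAMA5, a laminin alpha chain of epithelia (0.40 ± 0.09). Late, SMOC1, a calcium-binding matrix protein (-1.52 ± 0.20), and LAMB1, another laminin beta chain (-1.02 ± 0.14), fell the most. With time 13 rose and 1 fell in treated papillae (24.8% of all features rose and 29.9% fell), and 14 rose and 1 fell in controls (28.7% and 20.3%), with NID2, which links laminin to type IV collagen, at 2.06 ± 0.22 in treated and 2.23 ± 0.23 in control papillae.

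Cartilage partners split by direction. This list includes all the cartilage cell markers used above, so calls of those genes appear in both. Of 11 tested, 2 rose and 5 fell early, where 27.6% of all features rose and 23.5% fell. The rises were SOX9, which drives COL2A1 in cartilage (1.64 ± 0.12), and SOX5, its co-factor there (0.55 ± 0.13), and the falls included LECT1, chondromodulin (-1.01 ± 0.15). Another of the falls, HAPLN1, reached 1 RPKM in control samples alone and passed the filter only through them. Late, 0 rose and 1 fell, where 4.31% of all features rose and 15.1% fell. The fall was CHAD, a cartilage protein that binds collagen II (-1.69 ± 0.18). CHAD rose with time in controls (1.73 ± 0.18) and in treated papillae (0.69 ± 0.17). In treated papillae 4 of the 11 rose with time and 4 fell, where 24.8% of all features rose and 29.9% fell. In controls 5 rose and 3 fell, where 28.7% rose and 20.3% fell.

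Of the 4 tested genes of the tectorial membrane, which in mammals holds types II, IX and XI collagen, 1 fell and 0 rose early. The fall was TECTB (-0.90 ± 0.29), in a comparison where 23.5% of all features fell and 27.6% rose. Late, 1 rose (TECTA, an alpha-tectorin, 1.41 ± 0.38) and 1 fell (OTOGL, -0.79 ± 0.14), where 4.31% of all features rose and 15.1% fell. With time all 4 fell in treated papillae, where 29.9% of all features fell, and 3 of 4 fell in controls, where 20.3% fell. TECTB changed by -4.46 ± 0.29 in treated and -4.95 ± 0.32 in control papillae.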

How the data were processed

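RNA sequencing values of 28 basilar papilla samples were used, and each sample's title gave its treatment and time. The authors deposited 1 RPKM value per feature and sample. TopHat 1.4.0 and Partek 6.6 are named, without roles, in the submitters' processing notes, and the genome build, annotation and strand do not appear in the sources used here. The table has no counts per gene, so no counting intervals are given. Of 32 columns, 4 matched no sample and were not used.

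A feature entered the tests if 2 or more samples reached 1 RPKM (12195 did). Values were put on the log2(RPKM + 1) scale and tested two-sided in limma 3.58.1 under R 4.3.3, with eBayes and a mean trend. The comparison over all times had time and treatment as terms (19 residual degrees of freedom), and all others were contrasts of 16 group means (12). A lone sample is assumed to vary like the other groups. The collagens, the lists of partner and marker genes, the comparisons and the naming rule were chosen with earlier results of these data known. Values by sample were given for the 3 most abundant genes of each class and for the 3 largest passing rises and falls of each comparison over several times. Additional members were named after their values were seen. Gene names matched a RefSeq gene table (assembly GRCg7b) for 38 of 38 collagens.

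Across genes, sample 2 minus sample 1 of a time in treated papillae was correlated with that in controls (0.31, 0.29, 0.11, 0.48 and 0.41 at 0, 24, 48, 144 and 168 h), all over 0.1, so the numbers were taken to pair the samples, from the data and not from the labels. A block by replicate number, within each time or across all samples, was among the alternatives, and "the replicate block" in the text is the one within each time. The calls given ignore this pairing unless the block is named. That block left 5 residual degrees of freedom in the comparisons of windows and 12 over all times. The others were an equal weight for each time, a pseudocount of 0.1, no filter, no trend, median-of-ratios rescaling, only the samples compared, narrower windows (0 and 24 h, 144 and 168 h), a fit without 72, 96 and 120 h, and leaving out each library.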

Additional observations from a re-analysis of the deposited data

Results flagged for a closer look

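For 13 collagens the treated-minus-control difference at 120 to 168 h differed from that at 0 to 48 h by a test of the change itself (limma, interaction of window and treatment, adjusted p under 0.05). It was higher late for COL17A1 (2.14), COL1A1 (1.37), COL14A1 (1.24), COL13A1 (1.23), COL4A2 (1.01), COL6A1 (0.99), COL6A2 (0.99), COL12A1 (0.96) and COL4A1 (0.83), all on the log2 scale. It was lower late for COL9A3 (-1.87), COL8A2 (-1.63), COL23A1 (-0.79) and COL4A5 (-0.49). Among these, COL9A3, COL8A2, COL23A1 and COL4A5 were called lower than controls late, COL14A1 was called higher, and COL17A1, COL1A1, COL13A1, COL4A2, COL6A1, COL6A2, COL12A1 and COL4A1 were called lower early and not called late. The call of COL23A1 was lost in 20 of 28 fits that left out 1 library, that of COL4A5 in 11 and that of COL4A1 in 7. No group held enough samples for a test of single outlying samples.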

How the results depend on the processing

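Of 109 calls of collagens in the 6 comparisons over several times, 82 held in every alternative, 27 were lost in at least 1 and 0 reversed. The early treatment comparison held 18 of 18, the late one 3 of 14 (COL9A3, COL4A6 and COL8A2, all lower), all times 11 of 19, the change of the difference 9 of 13, late minus early in treated papillae 22 of 25 and in controls 19 of 20. COL12A1 lost its change of difference with narrower windows (0.91, adjusted p = 0.0734). The cause of these losses was not tested.

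With the replicate block within each time, the number of collagens higher was 1 over all times (2 without it), 2 early (1 without it) and 15 for the change of the difference (9 without it). Over the single times 11 calls were higher and 67 lower (7 and 39 without it). The share of all features called with the block is given for the single times only, where it was larger than without it at each time. No such share is given for the other alternatives. Besides the losses given with the genes, the block ended the calls of COL15A1 (-0.30, adjusted p = 0.0559) and COL5A1 (-0.21, adjusted p = 0.0637) over all times, of COL21A1 late (-0.39, adjusted p = 0.0776) and of COL23A1 for the change (-0.62, adjusted p = 0.0958). It added COL2A1 (0.56), COL3A1 (1.11), COL4A4 (0.49), COL5A2 (0.62) and COL8A1 (0.98) to the change and COL4A6 in controls (0.36), and it changed no other call in these comparisons.

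A pseudocount of 0.1 gave 7 lower late, and rescaling gave 7 lower late and 2 lower for the change. Fitting only the samples compared gave 2 higher early and 1 higher late. Narrower windows gave 0 higher late and 2 lower for the change, and without 72, 96 and 120 h 0 were higher over all times. Leaving out 1 library gave 1 to 2 higher over all times, 0 to 3 higher and 3 to 12 lower late, and 2 to 4 lower for the change. Leaving out control 120 h sample 1 removed 120 h from each comparison with late controls, since no other control of that time remained. The counts of fits that lost a call include libraries outside the windows compared. Their removal changes the shared estimate of spread and not the difference itself. Without control 0 h sample 1 the late COL5A1 difference stayed at -0.41, with a limma adjusted p of 0.052. Depth per gene is unknown, and genes with low values rest on few reads.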
